A study of Rattus norvegicus with 8 samples.

Results

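Thyrostimulin is a glycoprotein hormone made of the alpha subunit GPHA2 and the beta subunit GPHB5, and it binds the thyrotropin receptor TSHR. The 4 genes described here are Gpha2, Gphb5, Tshr and Cga, the last of which encodes the common alpha subunit shared by thyrotropin, luteinizing hormone and follicle-stimulating hormone. They were taken by gene name from the 31699 rows of the deposited expression table, and each name was on 1 row. Gpha2 drew attention through its difference between the groups in these same samples, and the others were added as its partner subunit, its receptor and the common alpha subunit. The members' values are therefore given as a description, without a test.

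The cells were annulus fibrosus cells (AFCs) of Sprague Dawley rats, which form the fibrous outer ring of the intervertebral disc, and all of them were exposed to cyclic mechanical stretch. In 4 samples the cells carried the lentiviral vector pLVX-shRNA-Puro (Lv-Ctrl), and in the other 4 they carried pLVX-shRNA-Puro-Piezo1 (Lv-Piezo1), a short hairpin construct directed at the mechanosensitive ion channel Piezo1. By the study's methods the tissue of 8 rats was pooled for each isolation, experiments on cells of the third passage counted as an independent repeat, and the 4 samples of a group are described as biological repeats. The labels themselves do not tie a sample to an isolation. The methods give 3-month-old males in their account of the animal model and name no other age or sex for the rats that gave these cells. No unstretched sample belongs to these groups, so what follows compares vectors under stretch only.

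In the thyroid, pituitary thyrotropin and thyrostimulin act through TSHR, a receptor with a large leucine-rich repeat domain. TSHR couples mainly to the stimulatory G protein, raises cyclic AMP (cAMP) and drives hormone synthesis. An alpha subunit has to pair with a beta subunit to form the known hormones, so the level of the partner and of the receptor is read beside that of Gpha2. Gpha2 transcripts are also known from the corneal limbus, where they mark epithelial stem cells.

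The sequences upstream of the alpha subunit genes are shown because Gpha2 was abundant in one group while Cga was almost unread in both. They are the 250 bases before 1 annotated gene start of each, taken from RefSeq on the GRCr8 assembly, at chr1:212955137-212955386 (plus strand) for Gpha2 and chr5:54283090-54283339 (plus strand) for Cga. Capitals mark matches to the motifs searched on both strands.
Gpha2: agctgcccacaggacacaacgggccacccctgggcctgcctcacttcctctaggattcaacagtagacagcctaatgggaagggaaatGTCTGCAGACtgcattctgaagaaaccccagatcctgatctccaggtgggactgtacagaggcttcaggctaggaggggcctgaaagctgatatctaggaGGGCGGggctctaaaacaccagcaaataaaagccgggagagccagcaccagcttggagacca
Cga: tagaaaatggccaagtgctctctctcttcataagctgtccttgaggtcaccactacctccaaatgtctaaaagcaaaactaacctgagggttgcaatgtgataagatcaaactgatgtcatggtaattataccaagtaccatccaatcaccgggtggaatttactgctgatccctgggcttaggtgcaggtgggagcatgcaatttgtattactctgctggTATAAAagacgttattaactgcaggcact
The Gpha2 window held 1 match to GGGCGG, the core of the GC box, and 2 adjacent matches on opposite strands to CAGAC, part of the SMAD binding element. The Cga window held 1 match to TATAAA, the TATA box. Neither window held an exact match to the cAMP response element TGACGTCA or its half-site TGACG, which is contained in the former. The AP-1 motif TGANTCA and the TEAD motif GGAATG had no match either. Near matches to these motifs were not searched for, so their absence is not shown. Among 33469 windows of the same length in the same table, GGGCGG was found in 30.5%, CAGAC in 42.9%, TATAAA in 12.9%, TGACGTCA in 1.59%, TGACG in 18.2%, TGANTCA in 6.34% and GGAATG in 12.1%. The matches describe letters only, and other annotated Gpha2 transcripts start elsewhere.

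Gpha2 (ENSRNOG00000021020) was 35.1 times higher in the Lv-Ctrl samples than in the Lv-Piezo1 samples. In TPM, a relative unit in which reads are divided by transcript length and then by the sample's total, it stood at 395, 391, 425 and 390.48 in Lv-Ctrl samples 1 to 4, and at 12.6, 9.57, 11.8 and 11.8 in Lv-Piezo1 samples 1 to 4. The groups did not overlap, and the lowest Lv-Ctrl value was 31.1 times the highest Lv-Piezo1 value. Group means were 400.4 ± 16.8 and 11.4 ± 1.29 TPM (SD, n = 4 each), a difference of -5.02 on the log2(TPM + 1) scale, Lv-Piezo1 minus Lv-Ctrl. The spread between replicates was 4.18% of the mean in Lv-Ctrl and 11.3% in Lv-Piezo1. Only 375 of the 31699 rows had a higher mean in Lv-Ctrl, against 7303 in Lv-Piezo1, which places the gene among the abundant transcripts in one group and well below them in the other.

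**Figure D1:**
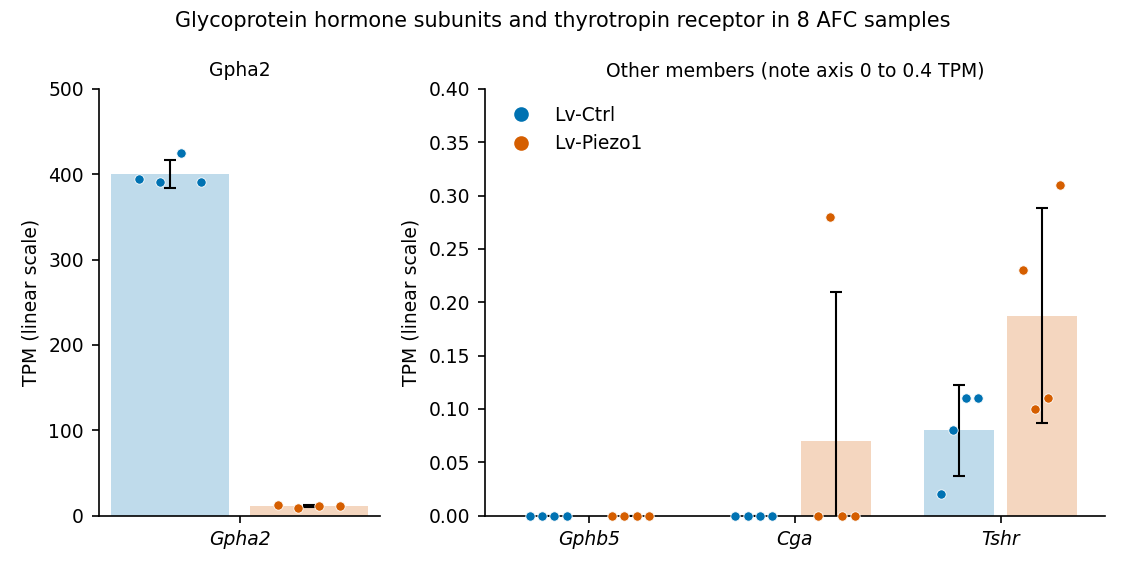
TPM of Gpha2, Gphb5, Cga and Tshr in each of the 4 Lv-Ctrl and 4 Lv-Piezo1 samples, on linear axes from 0, with points for samples, bars for group means and error bars for the SD; the right panel has its own axis. Gpha2 lay between 390.48 and 425 TPM in Lv-Ctrl and between 9.57 and 12.6 TPM in Lv-Piezo1, while the other genes stayed under 0.4 TPM.

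The partner beta subunit Gphb5 (ENSRNOG00000021885) was listed at 0 TPM in all 8 samples. The common alpha subunit Cga (ENSRNOG00000009269) was listed at 0 in 7 samples and at 0.28 TPM in Lv-Piezo1 sample 2. The receptor gene Tshr (ENSRNOG00000003972) was read at trace level, with 0.02, 0.08, 0.11 and 0.11 TPM in Lv-Ctrl and 0.23, 0.1, 0.11 and 0.31 TPM in Lv-Piezo1. Its groups overlapped, with means of 0.08 ± 0.0424 and 0.188 ± 0.101 TPM (SD, n = 4 each). Thus 1 of the 4 members, Gpha2, passed the filter of a mean of at least 1 TPM that the tests used. The Gpha2 mean lay above 1 TPM in each group.

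TPM keeps no record of sequencing depth, so no counting interval can be given for these low values, and a value of 0 means only that the gene is listed at 0. In bulk RNA, fewer cells of a type and less RNA per cell cannot be told apart.

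The remaining glycoprotein hormone genes were at or near 0. Fshb, Fshr and Lhcgr, the follicle-stimulating hormone beta subunit and the receptors for the gonadotropins, were listed at 0 in all 8 samples. Tshb, the thyrotropin beta subunit, was listed at 0.27 TPM in Lv-Piezo1 sample 4 alone, and Lhb, the luteinizing hormone beta subunit, at 0.39 and 0.57 TPM in Lv-Piezo1 samples 2 and 3. Summed over these 5 genes the level was 0 TPM in every Lv-Ctrl sample and 0 to 0.57 TPM in the Lv-Piezo1 samples, and none of the 5 could be tested. Over the whole table, 16645 to 17022 rows were above 0 in the Lv-Ctrl samples and 17191 to 17657 in the Lv-Piezo1 samples. Its part in these traces was not tested.

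In these samples the transcript of the construct's target went against the label. Piezo1 had 31.1, 33.0, 26.7 and 29.5 TPM in Lv-Ctrl and 38.1, 37.7, 40.2 and 41.4 TPM in the samples labelled Lv-Piezo1, a difference of 0.38 on the log2 scale with a standard error of 0.0649 (limma, adjusted p = 0.00086, n = 4 each). An exact two-sided permutation test of the 70 groupings gave p = 0.029, the smallest it allows. Directions below therefore refer to the labels and not to a loss of Piezo1 transcript. The paper reports that the effectiveness of its hairpin was verified, in an experiment whose values are not among those used here. Across the 13103 genes with a mean of at least 1 TPM, 644 (4.91%) were called higher in the samples labelled Lv-Piezo1 and 361 (2.76%) lower, a call being an adjusted p below 0.05 with at least a 2-fold change. The adjusted p alone passed for 58.2%, the unadjusted p for 62.3%, and 54.2% had groups that did not overlap, so groups that stand apart are the common case in this table. The median log2 fold change over all these genes was 0.14. Y-linked genes moved with the groups too: Eif2s3y had means of 61.1 and 15.1 TPM, Kdm5d 5.36 and 1.88 TPM and Uty 2.43 and 0.535 TPM in Lv-Ctrl and Lv-Piezo1, and their part in the Gpha2 difference was not tested.

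The receptor's structural relatives and their ligands, leucine-rich repeat receptors of the LGR and RXFP kind, R-spondins and relaxin peptides, were next examined. Of 13 genes with a row, 7 were tested and 0 were called, where 4.91% of all genes were called higher and 2.76% lower. By the adjusted p alone 5 had a lower level in Lv-Piezo1 (limma, 5 also by the unadjusted p). Of all genes 58.2% and 62.3% passed these limits in either direction. Rspo1, a secreted activator of Wnt signalling that binds LGR receptors, fell from 72.6 ± 1.69 to 39.4 ± 1.26 TPM (log2 fold change -0.87, standard error 0.0357, adjusted p = 1.0e-07). Its values were 73.4, 71.8, 74.6 and 70.8 TPM in Lv-Ctrl and 40.1, 40.7, 38.7 and 37.9 TPM in Lv-Piezo1. Lgr5, the R-spondin receptor known as a stem cell marker of the intestine, fell from 102 ± 10.3 to 69.98 ± 6.81 TPM (log2 fold change -0.54, standard error 0.0871, adjusted p = 6.5e-04). The relaxin receptor Rxfp1 changed by -0.66, the ligand Rspo3 by -0.45 with overlapping groups, and Rnf43, the membrane ubiquitin ligase that R-spondins clear, by -0.79 on the log2 scale (adjusted p = 3.0e-04, 0.0077 and 4.6e-05). Lgr4 (adjusted p = 0.21) and Insl3 (adjusted p = 0.11) did not pass. Rspo1 was called under median-ratio scaling (-1.04) and Rnf43 with a pseudocount of 0.1 (-1.01). The median over the 7 tested genes was -0.54, beside 0.14 for all genes.

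**Figure D2:**
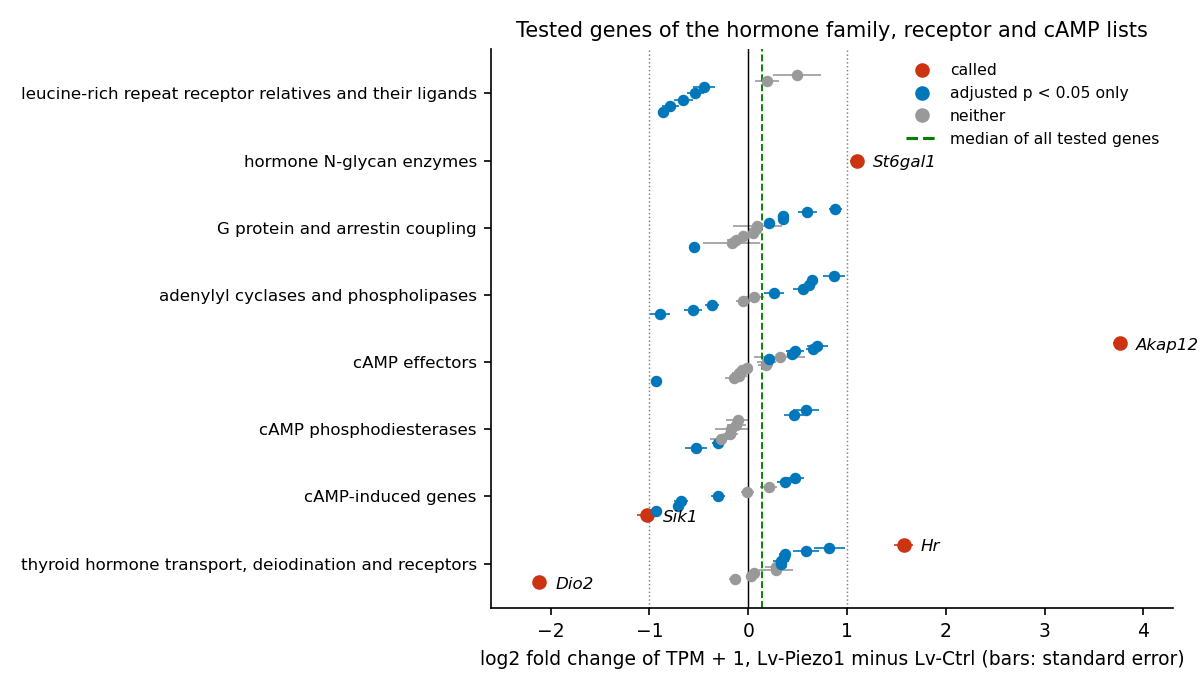
Log2 fold change (Lv-Piezo1 minus Lv-Ctrl, log2(TPM + 1) scale) of each tested gene, grouped by the list it belongs to, with bars for the standard error, colours for calls, a dashed line at the median of all tested genes, 0.14, and dotted lines at the fold change limit of a call. Akap12 at 3.76 and Dio2 at -2.12 stand farthest out, and 5 of the 7 receptor relatives and ligands lie to the left of 0.

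The 9 lists of hormone and pathway genes, which ran from the hormone subunits, receptor relatives and glycan genes through cAMP signalling to thyroid hormone genes, held 105 genes with a row and 75 tested ones. Of these 3 (4.00%) were called higher and 2 (2.67%) lower, close to the shares over all genes (4.91% and 2.76%). By the adjusted p alone 28 were higher and 17 lower, beside 58.2% of all genes in either direction. The most abundant gene of the coupling list, Gnas, encoding the stimulatory G protein alpha subunit, had means of 1216 and 1175 TPM and did not pass (log2 fold change -0.05, adjusted p = 0.12), but it passed under median-ratio scaling (-0.23, adjusted p = 0.0024). The receptor kinases Grk6 and Grk5, which phosphorylate activated receptors, moved apart: Grk6 went from 12.9 to 24.6 TPM (log2 fold change 0.88, adjusted p = 4.9e-06) and Grk5 from 60.5 to 40.9 TPM (log2 fold change -0.55, adjusted p = 8.6e-06).

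None of the 10 tested adenylyl cyclase and phospholipase genes was called, where 4.91% of all genes were called higher and 2.76% lower. By the adjusted p alone 8 passed (5 higher and 3 lower), as by the unadjusted p, beside 58.2% and 62.3% of all genes. Plcb3, a phospholipase C, rose by 0.65 on the log2 scale (24.5 to 38.9 TPM, adjusted p = 6.6e-06), and the calcium-stimulated cyclase Adcy8 fell by 0.89 from a low level (2.52 to 0.895 TPM, adjusted p = 8.6e-05). Adcy8 was called lower with a pseudocount of 0.1 (-1.40) and under quantile normalization (-1.09). Adcy2, the most abundant cyclase, fell by 0.37, from 92.5 to 71.0 TPM (adjusted p = 0.0018). Among phosphodiesterases, which break down cAMP, none of 9 was called, 4 passed by the adjusted p alone and 6 by the unadjusted p, beside the same shares of all genes, with Pde4c at 0.58 and Pde10a at -0.53 (adjusted p = 0.0039 and 0.0031) and the most abundant, Pde4b, at 96.5 and 88.6 TPM (adjusted p = 0.32, but 0.01 under median-ratio scaling). Pde4c was called higher with a pseudocount of 0.1 (1.01).

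The effectors held the largest rise on the pathway lists. Akap12, a scaffold that anchors protein kinase A, went from 2.38, 2.54, 2.04 and 2.07 TPM in Lv-Ctrl to 41.8, 40.5, 43.5 and 46.4 TPM in Lv-Piezo1. The 19.1-fold rise (log2 fold change 3.76, standard error 0.0686, adjusted p = 7.5e-10) came with groups that did not overlap. The most abundant effector, Prkar1a, the regulatory subunit of that kinase, had 137 and 131 TPM and did not pass (adjusted p = 0.22), but it passed under median-ratio scaling (-0.24, adjusted p = 7.1e-05), under quantile normalization (-0.11, adjusted p = 0.047) and without Lv-Ctrl sample 3 (-0.10, adjusted p = 0.04).

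Among genes that cAMP is known to induce, 9 were tested and 1 was called lower, where 4.91% of all genes were called higher and 2.76% lower. By the adjusted p 5 were lower and 2 higher (58.2% of all genes in either direction). Their median was -0.31, beside 0.14 for all genes. Sik1, a salt-inducible kinase, fell from 10.8 to 4.74 TPM (log2 fold change -1.03, standard error 0.1, adjusted p = 2.6e-05), with 11.3, 12.3, 8.87 and 10.5 TPM in Lv-Ctrl and 4.95, 4.31, 4.42 and 5.29 TPM in Lv-Piezo1. Its change is under 2-fold, at -0.97, without Lv-Ctrl sample 2, and at -0.99 without Lv-Piezo1 sample 2. Nr4a1, an orphan nuclear receptor and the most abundant of the list, fell by 0.71, from 433 to 264 TPM (adjusted p = 3.0e-06).

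**Figure D3:**
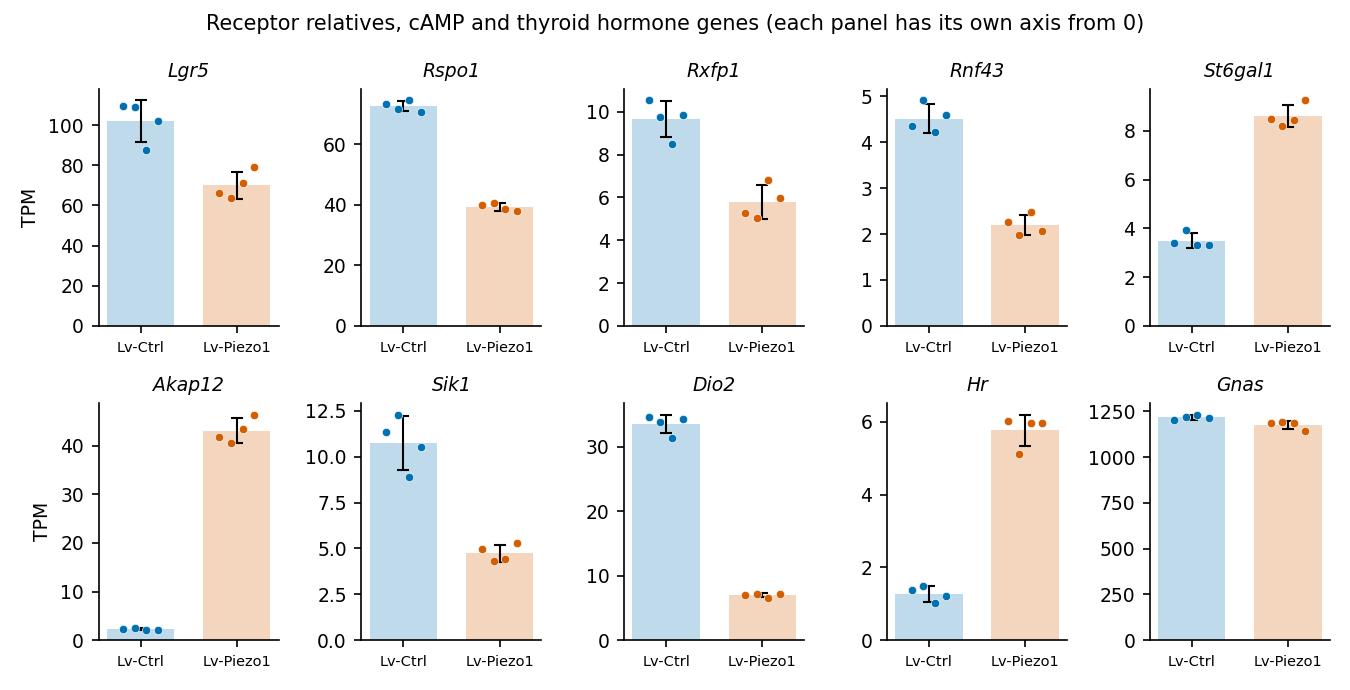
TPM of 10 pathway genes named in the text, each panel with its own linear axis from 0, with points for the 4 samples of each group, bars for means and error bars for the SD. Dio2 fell from between 31.4 and 34.6 TPM to between 6.54 and 7.17 TPM, and Akap12 rose from at most 2.54 to at least 40.5 TPM.

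Thyroid hormone genes formed the last list, since the receptor's known role is in the thyroid. Of 13 tested, 1 was called higher and 1 lower, and the adjusted p alone gave 7 higher and 1 lower, beside 4.91%, 2.76% and 58.2% of all genes. Dio2, the deiodinase that makes the active hormone from thyroxine, had 34.6, 33.9, 31.4 and 34.4 TPM in Lv-Ctrl and 7.01, 7.13, 6.54 and 7.17 TPM in Lv-Piezo1, a 4.82-fold fall (log2 fold change -2.12, standard error 0.0492, adjusted p = 3.5e-09). Hr, a corepressor of nuclear receptors, rose from 1.28 to 5.77 TPM (log2 fold change 1.57, standard error 0.0967, adjusted p = 1.4e-06). Dio3, the inactivating deiodinase, was the most abundant at 91.4 and 95.2 TPM, and its difference of 0.06 did not pass (adjusted p = 0.42) and turned with the scaling (-0.12, adjusted p = 0.042 under median-ratio scaling). Of 6 genes for enzymes that finish the N-glycans of these hormones or, with Mrc1, for a receptor that binds glycans, 1 was tested: St6gal1, a sialyltransferase, rose from 3.50 to 8.60 TPM (log2 fold change 1.10, standard error 0.0698, adjusted p = 1.7e-06), a call lost after median-ratio scaling (0.95) and quantile normalization (0.89).

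The 10 nearest protein-coding genes around Gpha2 in GRCr8 gene order were examined, 5 on each side, to see whether the region moved together. Of 8 tested, 0 were called by limma, where 4.91% of all genes were called higher and 2.76% lower. An adjusted p below 0.05 was found for 5 (5 also by the unadjusted p), against 58.2% and 62.3% of all genes. Groups did not overlap for 4, against 54.2%. Ppp2r5b, a regulatory subunit of protein phosphatase PP2A, lies next to Gpha2 on the opposite strand, and the annotated ends of the genes overlap by 4 bases. It had 76.7, 82.3, 74.3 and 73.3 TPM in Lv-Ctrl and 37.7, 35.5, 42.1 and 44.3 TPM in Lv-Piezo1, a 1.92-fold fall (log2 fold change -0.93, standard error 0.0714, adjusted p = 5.6e-06). Without strand information, which is not given in the sources used here, reads from the shared end could be counted for either gene. Whether this happened was not tested. By the adjusted p, Sac3d1 rose (0.48) and Atg2a fell (-0.33). Ehd1 (0.19, adjusted p = 0.0067) no longer passed under median-ratio scaling (0.02, adjusted p = 0.77) or quantile normalization (0.06, adjusted p = 0.31). Snx15 (-0.24, adjusted p = 0.02) no longer passed with the replicate number as a block (adjusted p = 0.059) or without Lv-Piezo1 sample 1 or 4 (adjusted p = 0.057 and 0.054). Arl2, Cdc42bpg and Men1 did not pass, although Arl2 did under median-ratio scaling (-0.21, adjusted p = 0.026) and Cdc42bpg under quantile normalization (-0.15, adjusted p = 0.029). Majin, the nearest gene on the other side, had 0.4 and 0.178 TPM and was not tested, and Batf2 was listed at 0 throughout.

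**Figure D4:**
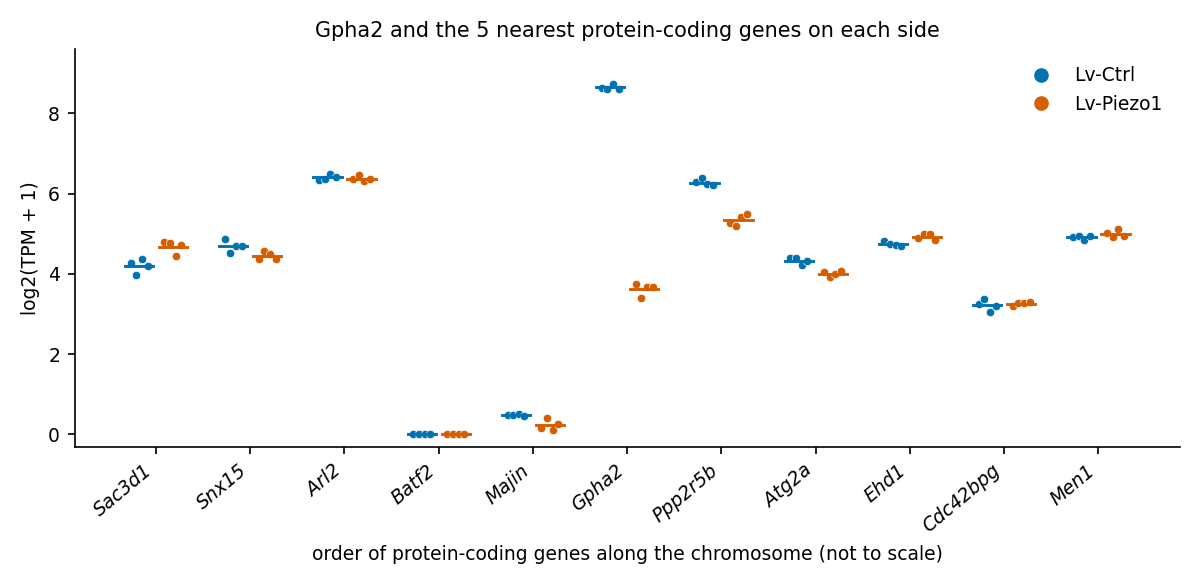
Level as log2(TPM + 1) of Gpha2 and of its 5 neighbours on each side, in gene order and not to scale, with a point for each sample and a line for each group mean. The groups of Gpha2 differ by -5.02 (Lv-Piezo1 minus Lv-Ctrl), and those of Ppp2r5b, next to it, by -0.93.

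The genes whose pattern was most like that of Gpha2 over the 8 samples were Crisp3, Apoe, Eif2s3y, Fibin and Atp1b3, each with a Pearson r of 0.999 on the log2(TPM + 1) scale across 11580 genes with a symbol. Crisp3 had means of 11.3 and 0.428 TPM, Apoe 203 and 21.7 TPM, Eif2s3y 61.1 and 15.1 TPM, Fibin 705 and 395 TPM, and Atp1b3 462 and 252 TPM. The most opposite in pattern were Uap1l1, Pxdc1, Gja5, Gpi and Rpgr, each with an r of -0.999, and of them Rpgr had means of 2.63 and 25.7 TPM. In all, 192 genes had an r above 0.99 and 418 below -0.99. All share the same 8 samples and the same split, so the likeness is a description of a difference between groups.

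The labelled cell type was checked against its markers. Annulus fibrosus and fibrous tissue genes summed to 6831 to 7689 TPM in Lv-Ctrl and 10180 to 10870 TPM in Lv-Piezo1, with Col1a1, a chain of type I collagen, at 3282 and 5835 TPM, while Col2a1 was below 1 TPM and Tnmd near 0. Dcn, the matrix proteoglycan decorin, fell from 1456 to 519 TPM (log2 fold change -1.49, adjusted p = 7.9e-09), and Comp, a cartilage matrix protein, rose from 0.738 to 2.86 TPM (log2 fold change 1.16, adjusted p = 3.4e-05), a call lost after quantile normalization (0.95). Of 13 thyroid follicular markers 12 were below 1 TPM in all samples, and the sum of the list was 1.55 to 1.79 TPM in Lv-Ctrl and 3.26 to 4.73 TPM in Lv-Piezo1. Of 11 pituitary markers 10 were below 1 TPM with Prl at 0 (sums of 1.65 to 2.36 and 1.94 to 3.86 TPM). All 6 epithelial markers with a row were below 1 TPM with Krt5, Krt12 and Cdh1 at 0 (sums of 0 to 0.26 and 0.03 to 0.53 TPM). The epithelial markers Krt14, Krt3 and Trp63 had no row. Which cells the Gpha2 reads came from was not tested. Of 9 macrophage and endothelial markers 7 were below 1 TPM in all samples with C1qa at 0. The list summed to 21.1 to 22.9 TPM in Lv-Ctrl and 36.1 to 41.6 TPM in Lv-Piezo1, nearly all of it Cd14 (20.9 and 25.8 TPM) and Cd68 (0.955 and 12.3 TPM, log2 fold change 2.88, adjusted p = 2.7e-05), and their part in the Gpha2 difference was not tested.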

How the data were processed

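RNA-seq of 8 samples was used, 4 of each group as given by the labels. By their methods, the authors aligned reads with HISAT2, quantified them with StringTie as FPKM and compared groups with DESeq. The authors' processing notes at GEO name DESeq2 and mm10, a mouse build, while the identifiers are rat Ensembl genes, so the build is uncertain and no coordinates are given for the expression values. The deposited table holds 1 TPM value per gene and sample, made by the authors, plus their group means, which were not used. It has no counts, so depth is unknown and its effect on low values cannot be given. All 8 sample columns were used and 0 were left over.

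Values were transformed as log2(TPM + 1). Genes with a mean of at least 1 TPM (13103 of 31699) were fitted with limma 3.58.1 in R 4.3.3 (moderated variance with an intensity trend, 4 against 4 samples), with Benjamini-Hochberg adjustment over all of them. Genes were called where the adjusted p was below 0.05 and the log2 difference was 1 or more in size. The fold change on this scale understates that of low genes. The procedure was tested on simulated data. Where a symbol was on more than 1 row (Gnas, Lhb, Pde4c) the row with the higher mean was taken, and Dusp1, Krt14, Krt3 and Trp63 had no row. Gene order and upstream sequences are from RefSeq on GRCr8.

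The members and lists were chosen with earlier results of these data known, so the members' values carry no test. Named genes were, by rule, the members, Piezo1, every relative with an adjusted p below 0.05, up to 3 called rises and falls of each other list (or, where none was called, the strongest rise and fall) with its most abundant gene, and the 5 neighbours on each side. The rule also took the 5 genes with the highest and the 5 with the lowest correlation with Gpha2. Y-linked Kdm5d and Uty were named after their values were seen. Single values of some marker genes are not reported here. Alternatives were another pseudocount (0.1), no filter or a mean of at least 5 TPM, median-ratio scaling, quantile normalization, no variance trend, the replicate number as a block, and each sample left out in turn.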

Additional observations from a re-analysis of the deposited data

Results flagged for a closer look

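In groups of 4 samples a single sample was examined for standing apart from the others (Dixon's criterion), which chance gives for about 1 in 20 groups. That rate is for normally distributed values and does not hold where values lie at 0. Of the 105 gene and group pairs examined over 55 genes, 9 met it. Gpha2 had its highest Lv-Ctrl value, 425 TPM, in sample 3, with the next at 395 TPM. Cga had its only value above 0, 0.28 TPM, in Lv-Piezo1 sample 2, a pattern that meets the criterion by construction. Among pathway genes, St6gal1 had a highest Lv-Ctrl value of 3.94 TPM and Grk6 a lowest of 11.2 TPM, and the lowest Lv-Piezo1 values of Gnas, Plcb3 and Hr were 1140.0, 36.6 and 5.12 TPM. Among cell type markers, Epcam was at 0 TPM in 1 Lv-Piezo1 sample and Dcn had a lowest Lv-Ctrl value of 1352 TPM. Lv-Ctrl sample 3 was also the lowest of its group for 48.8% of the tested genes and for 62 of the 75 tested pathway genes, and Lv-Piezo1 sample 2 for 35.5% and 39. Without Lv-Ctrl sample 3 the Gpha2 difference was -4.99, and 1030 genes were called (640 higher and 390 lower).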

How the results depend on the processing

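The Gpha2 difference was -5.19 after median-ratio scaling and -5.06 to -4.94 with each sample left out in turn. In place of 1005 genes, 1438 were called with a pseudocount of 0.1 (952 higher and 486 lower). When only genes with a mean of at least 5 TPM were fitted, 628 (372 higher) were called. By the adjusted p alone 7626 passed. With each sample left out in turn, 1006 to 1030 were called, 640 to 673 higher and 348 to 390 lower, and Piezo1 changed by 0.33 to 0.43. After median-ratio scaling Piezo1 changed by 0.21, the median of all genes moved from 0.14 to -0.02, and the calls split 504 higher and 477 lower (466 and 478 after quantile normalization). Pathway genes called higher numbered 6 with a pseudocount of 0.1 and 28 by the adjusted p alone, and 3 to 3 with each sample left out. Those called lower numbered 4 with a pseudocount of 0.1, 4 under median-ratio scaling, 4 under quantile normalization and 17 by the adjusted p alone, and 1 to 2 with each sample left out. Among the neighbours of Gpha2, 1 gene, Ppp2r5b, was called under median-ratio scaling and 1 under quantile normalization, and 0 to 0 with each sample left out. Changes of sign were seen in Dio3 (-0.12 with median-ratio scaling, -0.004 with quantile normalization), Cdc42bpg (-0.12, -0.15 and, with each sample left out, -0.013 to 0.093, lowest without Lv-Ctrl sample 3) and Men1 (-0.087 and -0.039); the cause was not tested. Of the 37 tested list and neighbour genes picked by the naming rule, 25 kept direction and call under every alternative run. However, 10 crossed an adjusted p of 0.05 under at least 1 alternative, and 17 kept direction, call and side of that limit. The 37 include the marker genes Duoxa1 and Tbx19, whose values are not reported here.

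Same-numbered samples showed no shared deviation: their deviations correlated at -0.0576 to -0.0124, and 0 of 4 Lv-Ctrl samples matched best with the same number in Lv-Piezo1. This cannot show whether the samples were paired by isolation. With the replicate number as a block, 1004 genes were called (644 higher and 360 lower), Gpha2 differed by -5.02, and Piezo1 changed by 0.38 (adjusted p = 0.0068 from limma). Of the 37 tested list and neighbour genes picked by the naming rule, none changed its call, and Snx15 no longer had an adjusted p below 0.05 (0.059). The depth of the libraries is unknown, so how far it limits the low values of Gphb5, Cga and Tshr cannot be given.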

Other observations

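Some pathway genes below the filter, or outside the naming rule, also differed in level, and they are given as values chosen after they were seen. B4galnt4, a glycan enzyme, had 0.095 TPM in Lv-Ctrl and 1.06 TPM in Lv-Piezo1 and was not tested. Crem, a transcription factor that cAMP induces, fell from 35.8 to 18.2 TPM (log2 fold change -0.94, adjusted p = 8.3e-08 from limma), which is under 2-fold on this scale. In the GRCr8 gene order Dio2 lies 2 protein-coding genes from Tshr, with Cep128 between them. Of the thyroid hormone receptors, Thrb rose from 0.978 to 1.97 TPM (log2 fold change 0.58, adjusted p = 0.0040), and Thra had 64.5 and 65.9 TPM and did not pass (adjusted p = 0.53).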
